A study of Mus musculus with 28 samples.

Results

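The list of markers for 2 kinds of macrophage held 10 genes, out of the 45318 genes of each deposited table. A gene was a member when its symbol matched the list exactly, and all 10 were found on 1 line each. Of these, 5 are commonly used for macrophages that live in the heart from before birth (*Lyve1*, *Timd4*, *Folr2*, *Cd163* and *Mrc1*, called resident genes here). The other 5 are commonly used for cells that have entered tissue from the blood (*Ccr2*, *Ly6c2*, *Arg1*, *Chil3* and *Plac8*, called recruited genes). The names come from the list, and whether they hold for the cells of these hearts was not measured, since RNA was taken from tissue and not from sorted cells.

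All animals were male mice of the outbred strain Hsd:ICR(CD-1), raised with their own dam and litter. A myocardial infarction (MI), made by tying the left anterior descending (LAD) coronary artery, or a sham operation was performed on postnatal day 1 or 7. Left ventricular wall described as lying away from the infarct, the remote zone, was taken 3 or 21 days later. Whether any infarcted tissue was included was not measured. After 3 days the infarcted groups are 1d-MI + 3 and 7d-MI + 3 and their controls 1d-SHAM + 3 and 7d-SHAM + 3, with 4 libraries in each group. After 21 days they are 1d-MI + 21 and 7d-MI + 21 with the controls 1d-SHAM + 21 and 7d-SHAM + 21, with 3 libraries in each group. In these names the first part gives the day and kind of operation and the last number the days of follow-up. The comparisons ask whether injury at the age of 7 days, when the mouse heart has lost much of its capacity to regenerate, differs from injury at 1 day. Groups operated on different days also differ in age at collection, and sham-operated hearts of both ages were therefore compared as well.

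Resident cardiac macrophages are seeded before birth, clear dying cells and debris, and maintain themselves largely by local division. After infarction, monocytes that carry the chemokine receptor CCR2 leave the bone marrow and spleen, follow the ligand CCL2 into the injured heart, and become macrophages there. Arginase 1 and the chitinase-like protein YM1 are induced in macrophages by interleukin-4 signaling and are also made during wound repair by monocyte-derived cells.

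The members are spread over the GRCm38 build, and their start and end in the deposited tables equal those of GENCODE M21 for all 10. The resident genes are *Lyve1* (ENSMUSG00000030787, chromosome 7, 110850607 to 110863239), *Timd4* (ENSMUSG00000055546, chromosome 11, 46810800 to 46844332), *Folr2* (ENSMUSG00000032725, chromosome 7, 101839988 to 101857194), *Cd163* (ENSMUSG00000008845, chromosome 6, 124304656 to 124330527) and *Mrc1* (ENSMUSG00000026712, chromosome 2, 14229392 to 14332057). The recruited genes are *Ccr2* (ENSMUSG00000049103, chromosome 9, 124101950 to 124113557), *Ly6c2* (ENSMUSG00000022584, chromosome 15, 75108158 to 75111970), *Arg1* (ENSMUSG00000019987, chromosome 10, 24915221 to 24927484), *Chil3* (ENSMUSG00000040809, chromosome 3, 106147554 to 106167564) and *Plac8* (ENSMUSG00000029322, chromosome 5, 100553725 to 100572245). Reads of some members, among them *Folr2*, *Ly6c2* and *Chil3*, can be shared with another gene. Among the words of 75 bases, the read length at 3 days, in the longest coding transcript, 51.3% of those of *Folr2* were also found, on the opposite strand, in the antisense gene *Gm10602*. For *Ly6c2* the share was 21.9%, all of it in *Ly6c1*, and for *Chil3* 14.2%, mostly in *Chil4*. For 6 members the share was 0. The strand setting of the counting is not given in the sources used here, so counts of *Folr2*, *Ly6c2* and *Chil3* are uncertain to the extent of these shared words.

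Promoter sequence from RefSeq (GRCm38.p6) was found for 8 of the 10 members, with no entry for *Lyve1* or *Arg1*. The window searched runs from 250 to 51 bases before the start, and holds 200 bases. The letters GAGGAA, the core bound by the myeloid factor PU.1, stood on either strand in 3 of the 8 windows and in 18.8% of the windows of all 32851 promoters. The 3 windows that hold a match are shown, with the match in capitals (TTCCTC where it lies on the other strand). *Mrc1*, *Ly6c2* and *Plac8* were all higher in 7d-MI + 3 than in 7d-SHAM + 3. So were *Ccr2*, whose window held no match, and *Arg1*, which had no promoter entry. *Mrc1* is on the plus strand at chr2:14229164-14229363, *Ly6c2* on the minus strand at chr15:75112022-75112221 and *Plac8* on the minus strand at chr5:100572256-100572455.
Mrc1: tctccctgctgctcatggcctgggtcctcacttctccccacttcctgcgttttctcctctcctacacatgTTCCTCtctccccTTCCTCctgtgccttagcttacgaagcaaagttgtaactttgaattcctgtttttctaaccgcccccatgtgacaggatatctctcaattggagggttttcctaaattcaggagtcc
Ly6c2: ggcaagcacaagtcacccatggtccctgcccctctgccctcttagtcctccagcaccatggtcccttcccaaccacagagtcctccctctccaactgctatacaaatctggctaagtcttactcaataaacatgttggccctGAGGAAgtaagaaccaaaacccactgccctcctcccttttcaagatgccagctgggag
Plac8: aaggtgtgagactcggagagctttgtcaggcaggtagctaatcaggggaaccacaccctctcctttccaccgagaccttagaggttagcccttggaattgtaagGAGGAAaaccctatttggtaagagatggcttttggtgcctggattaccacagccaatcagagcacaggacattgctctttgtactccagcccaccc
The matches begin 180 and 167 bases before the start in *Mrc1*, 108 in *Ly6c2* and 146 in *Plac8*. The AP-1 type letters TGANTCA and the C/EBP type letters TTGCNNAA, which can overlap one another, stood in none of the 8 windows, and in 5.57% and 8.11% of all. These matches describe letters only, and no binding was measured.

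Libraries held 33077962 to 51942648 counts at 3 days and 40514177 to 168550985 counts at 21 days. Ribosomal RNA loci took 0.0325 to 0.254% of the counts at 3 days but 0.321 to 62.7% at 21 days, where 22118643 to 166982894 counts remained outside them. The follow-ups used different library kits and sequencers and were scaled and tested apart, and no level is compared between them. The numbers that begin the animal labels are shared by no 2 groups, so that a group and whatever such a number stands for, for example a litter, cannot be told apart. The 2 libraries of 1d-SHAM + 3 (label prefix 1078) and all of 1d-MI + 3 had counts on 27324 to 35932 genes, against 19446 to 22316 in the other libraries at 3 days. Olfactory and vomeronasal receptor genes, which serve as a measure of stray reads, reached 0.0752 CPM (counts scaled to a library total of 1000000) per kilobase in 1d-MI + 3 and at most 0.0114 in 7d-MI + 3. Among counts from 2 to 20, 65.1 to 85.4% were even numbers in the libraries at 3 days and 72.7 to 81.4% at 21 days. Whether a fragment could be counted more than once was not tested, so low counts may stand for fewer fragments. Cardiomyocyte marker genes summed to 13141 to 31093 CPM over all libraries, and none of the 8 was at 0 in any group.

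*Ccr2*, the receptor for CCL2 that lets monocytes leave the marrow and enter tissue, was the member of the recruited genes with the most counts in sham-operated hearts at 3 days. It measured 3.07, 3.57, 1.86 and 2.00 CPM in the 4 libraries of 1d-SHAM + 3 and 3.56, 4.42, 8.75 and 21.0 CPM in those of 1d-MI + 3. At the later operation it measured 1.70, 0.805, 0.666 and 1.30 CPM in 7d-SHAM + 3 and 40.2, 40.5, 21.2 and 24.8 CPM in 7d-MI + 3. Every CPM was scaled by TMM, the trimmed mean of M-values, and libraries are given in the order of their replicate numbers. The 7d-MI + 3 libraries lay above all others, and the 7d-SHAM + 3 libraries lay below all others. In tissue libraries such as these, for every member, fewer cells of a type and less RNA per cell cannot be told apart. After the operation at 7 days the log2 fold change of MI against sham was 4.84 (SE 0.57, adjusted p = 1.8e-05), from the quasi-likelihood test of edgeR adjusted over all genes by Benjamini-Hochberg, as for every adjusted p at 3 days that is given without another test. After the operation at 1 day it was 1.84 (SE 0.50, adjusted p = 0.038), with overlapping groups and 1 library, 1d-MI + 3 replicate 4, far above the rest. Without that library it was 1.08 and did not pass (adjusted p = 0.088), nor did it pass without replicate 1, 3 or 4 of 1d-SHAM + 3 (adjusted p = 0.075, 0.13 and 0.12).

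*Ly6c2*, one of the 2 genes behind the Ly6C antigen of inflammatory monocytes, stayed at low counts. Its libraries held 6, 4, 2 and 2 counts in 1d-SHAM + 3, whereas those of 1d-MI + 3 held 3, 27, 8 and 34. After the operation at 7 days they held 5, 0, 4 and 4 counts with sham and 103, 56, 18 and 20 with MI, where the groups did not overlap on the CPM scale. *Ly6c2* rose with MI at 7 days, by 3.28 on the log2 scale (SE 0.89, adjusted p = 0.0069), and its value at 1 day, 2.13, did not pass (adjusted p = 0.12). Its near copy *Ly6c1*, which marks endothelium, went the other way: it fell from 26.4 ± 0.654 CPM with sham at 7 days to 9.19 ± 1.41 CPM with MI (mean ± SD over 4 libraries), -1.52 on the log2 scale (edgeR, adjusted p = 7.5e-06).

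*Plac8*, a small cysteine-rich protein of monocytes and other blood cells, measured 0, 0.296, 0.133 and 0.599 CPM in 1d-SHAM + 3 and 0.503, 1.01, 0.218 and 1.91 CPM in 1d-MI + 3. In 7d-SHAM + 3 it measured 0.340, 0.124, 0.359 and 0.0543 CPM, and in 7d-MI + 3 it measured 3.14, 2.09, 1.49 and 1.17 CPM. The groups overlapped after the operation at 1 day and did not after that at 7 days. *Plac8* rose with MI at 7 days by 3.16 on the log2 scale (SE 0.82, adjusted p = 0.0056), and had 1.88 at 1 day (adjusted p = 0.14).

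*Arg1*, which splits arginine into ornithine and urea, had the largest difference with MI of the 10 genes. It measured 0.239, 0.190, 0 and 0 CPM in 1d-SHAM + 3 and 3.04, 5.94, 0.576 and 5.59 CPM in 1d-MI + 3. It measured 0.0680, 0.155, 0.154 and 0 CPM in 7d-SHAM + 3 and 56.9, 65.0, 29.4 and 41.1 CPM in 7d-MI + 3. No sham library held more than 12 counts, 3 of the 8 held 0, and the 7d-MI + 3 libraries held 1502 to 3359, so that the sizes of the folds against sham rest on few counts. *Arg1* rose with MI at both ages, by 4.95 (SE 0.83, adjusted p = 0.0051) after the operation at 1 day and by 8.95 (SE 0.89, adjusted p = 6.0e-06) after that at 7 days. In infarcted mice it was 3.67 higher on the log2 scale at 7 days than at 1 day (SE 0.60, adjusted p = 4.4e-04), a ratio of 12.7 between the mean CPM values. *Chil3*, the gene of YM1, was the other effector gene and stayed between 0 and 1.14 CPM in all 16 libraries. Its groups overlapped in every comparison, and its log2 fold changes with MI, 2.26 at 1 day and 2.25 at 7 days, did not pass (adjusted p = 0.18 and 0.11).

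**Figure D1:**
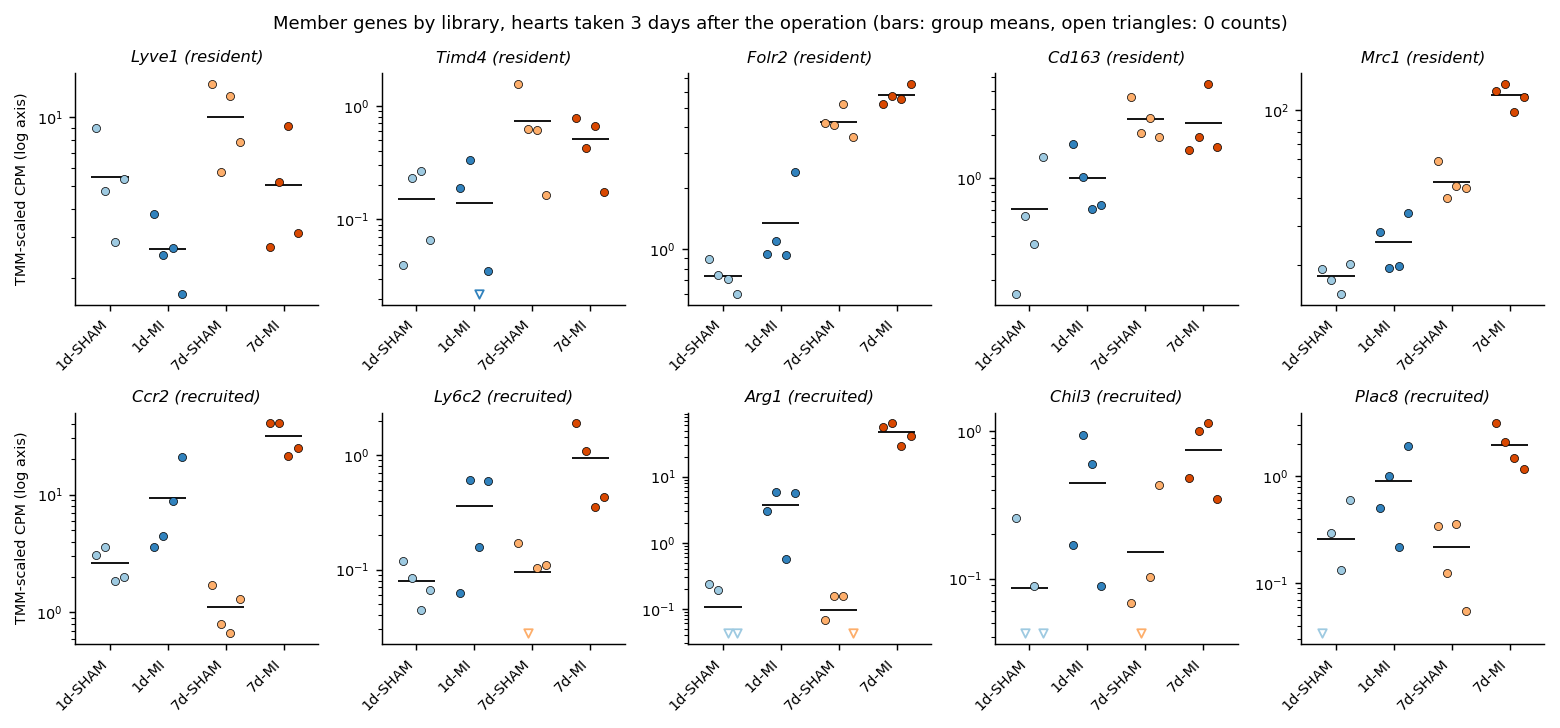
CPM after TMM scaling (log axis) of the 10 genes in each library of the 3-day follow-up, by group, with 4 points per group, a bar at the group mean and open triangles for libraries with 0 counts. *Arg1* and *Ccr2* reach 29.4 to 65.0 and 21.2 to 40.5 CPM in 7d-MI + 3, while *Mrc1* and *Folr2* are higher at the later operation in sham-operated and infarcted mice alike.

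Among the resident genes, *Mrc1*, the mannose receptor CD206, had the most counts. It measured 19.2, 17.1, 14.8 and 20.2 CPM in 1d-SHAM + 3 and 28.2, 19.3, 19.8 and 34.3 CPM in 1d-MI + 3. It measured 58.9, 40.2, 45.5 and 44.3 CPM in 7d-SHAM + 3 and 122, 131, 98.4 and 114 CPM in 7d-MI + 3. The groups formed steps, with every library of 7d-SHAM + 3 above every library operated at 1 day and every library of 7d-MI + 3 above those. *Mrc1* rose with MI at 7 days by 1.30 on the log2 scale (SE 0.18, adjusted p = 1.0e-05), and its value at 1 day, 0.51 (SE 0.17), did not pass (adjusted p = 0.068). It was also higher in the shams of 7 days than in those of 1 day, by 1.41 (SE 0.18, adjusted p = 2.4e-05).

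*Folr2*, a folate receptor of resident macrophages, measured 0.896, 0.740, 0.709 and 0.599 CPM in 1d-SHAM + 3 and 0.943, 1.09, 0.933 and 2.40 CPM in 1d-MI + 3. In 7d-SHAM + 3 it measured 4.21, 4.09, 5.20 and 3.58 CPM, and in 7d-MI + 3 it measured 5.24, 5.74, 5.52 and 6.57 CPM. All 4 comparisons separated the groups without overlap, but the steps with MI were small next to the step with age. Between shams it was higher at 7 days by 2.52 on the log2 scale (SE 0.28, adjusted p = 1.0e-05), and the values with MI were 0.86 at 1 day (adjusted p = 0.059) and 0.43 at 7 days (adjusted p = 0.21). The antisense gene *Gm10602*, whose reads could have been counted in part for *Folr2*, held 1.21 ± 0.244 CPM with sham and 1.39 ± 0.165 CPM with MI at 1 day, and 1.31 ± 0.136 and 0.702 ± 0.321 CPM at 7 days (mean ± SD over 4 libraries). The means of both shams lay within the SD of each other.

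*Cd163*, the scavenger receptor for haptoglobin and hemoglobin complexes, measured 0.159, 0.550, 0.354 and 1.40 CPM in 1d-SHAM + 3 and 3.64, 2.04, 2.61 and 1.93 CPM in 7d-SHAM + 3. The shams did not overlap, and *Cd163* was higher at 7 days by 2.10 on the log2 scale (SE 0.53, adjusted p = 0.0093). That call was lost without the 2 shams of label prefix 1078, which held 0.159 and 0.550 CPM (log2 fold change 1.58, adjusted p = 0.11). In infarcted mice it measured 1.72, 1.03, 0.615 and 0.654 CPM in 1d-MI + 3 and 1.56, 1.93, 4.49 and 1.65 CPM in 7d-MI + 3. Neither value with MI passed, with 0.75 at 1 day (adjusted p = 0.35) and -0.08 at 7 days (adjusted p = 0.94).

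*Lyve1*, a hyaluronan receptor found on resident macrophages and on lymphatic endothelium, had lower means after MI at both ages. It measured 9.02, 4.78, 2.86 and 5.39 CPM in 1d-SHAM + 3 and 3.79, 2.50, 2.70 and 1.70 CPM in 1d-MI + 3. It measured 14.0, 5.76, 12.4 and 7.82 CPM in 7d-SHAM + 3 and 2.71, 5.22, 9.13 and 3.12 CPM in 7d-MI + 3. The groups overlapped at both ages, and neither log2 fold change passed: -1.05 at 1 day (SE 0.41, adjusted p = 0.11) and -0.98 at 7 days (SE 0.40, adjusted p = 0.069). The difference at 7 days passed with DESeq2 and with limma-voom (-1.03 and -1.06, adjusted p = 0.029 and 0.031), and in edgeR without 7d-MI + 3 replicate 3 (-1.43, adjusted p = 0.0100) or without 7d-SHAM + 3 replicate 2 (-1.16, adjusted p = 0.049). Of 5 lymphatic endothelial genes tested, 2 were higher in 7d-MI + 3 than in 7d-SHAM + 3 (*Pdpn* and *Flt4*, at 1.52 and 0.80; edgeR, adjusted p = 1.9e-05 and 0.0011) and none was lower, at a median of 0.03. The 6 listed summed to 51.4 to 70.7 CPM with sham and 53.0 to 112 with MI, and *Ccl21a* held 0 counts in all libraries of 3 days. Their part in the values of *Lyve1* was not tested. *Timd4*, the receptor TIM-4 for phosphatidylserine on dying cells, held 0 to 15 counts in the libraries operated at 1 day and 6 to 46 in those operated at 7 days. It passed in none of the comparisons at 3 days, with -0.15 and -0.52 for MI at 1 and 7 days (adjusted p = 0.93 and 0.71), and 2.25 between shams (adjusted p = 0.092). For 7d-MI + 3 against 1d-MI + 3 it had 1.87 (adjusted p = 0.11). That value passed in limma-voom (2.71, adjusted p = 0.033) and in edgeR without 1d-MI + 3 replicate 2 (2.76, adjusted p = 0.044).

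Set against the genes of the whole table, 7d-MI + 3 and 7d-SHAM + 3 differed in 5 members, all higher in 7d-MI + 3, where 34.0% of the 20345 genes tested passed in either direction. Of these, 4 were recruited (*Arg1*, *Ccr2*, *Ly6c2* and *Plac8*) and 1 was resident (*Mrc1*). The recruited genes had a median log2 fold change of 3.28 and the resident genes -0.08, against 0.08 over all genes. The same 5 genes, and *Folr2*, were those whose groups did not overlap, and 37.4% of all genes tested were without overlap. With the label prefix as a random block in limma-voom, *Mrc1*, *Ccr2* and *Arg1* passed, while *Ly6c2* and *Plac8* had an adjusted p of 0.059 and 0.059.

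At 1 day, 1d-MI + 3 and 1d-SHAM + 3 differed in 2 members, *Arg1* and *Ccr2*, both higher in 1d-MI + 3, where 8.46% of genes passed. The recruited genes had a median of 2.13 and the resident genes of 0.51, against 0.06 over all genes. *Arg1* and *Folr2* were without overlap, as were 12.2% of all genes. Both calls were lost when the 2 shams of label prefix 1103 were left out, with adjusted p = 0.067 for *Arg1* and 0.29 for *Ccr2*, and in limma-voom (0.051 and 0.052). The resident genes *Folr2* and *Mrc1* also passed, higher with MI, in edgeR with upper-quartile scaling (adjusted p = 0.035 and 0.027). They passed as well with a stricter filter on counts and in DESeq2 (0.032 and 0.024). Without a filter *Lyve1*, lower with MI, and *Plac8*, higher, passed instead.

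The effect of MI differed between ages in 2 members, where 13.1% of genes passed this test of the difference. For *Ccr2* the effect was 3.00 larger on the log2 scale after the operation at 7 days than after that at 1 day (SE 0.72, adjusted p = 0.015), and for *Mrc1* it was 0.79 larger (SE 0.25, adjusted p = 0.038). *Arg1* had 4.0 (SE 1.54) and did not pass (adjusted p = 0.11), though it passed in DESeq2 (adjusted p = 0.040) and without 1d-MI + 3 replicate 3 (adjusted p = 0.042). The call on *Ccr2* was lost with the label prefix as a random block in limma-voom (3.48, adjusted p = 0.074) and without the shams of label prefix 1078 (2.54, adjusted p = 0.100). That on *Mrc1* was lost when any 1 of 10 libraries was left out, namely replicate 1 or 4 of 1d-SHAM + 3, 2 or 3 of 1d-MI + 3, 2, 3 or 4 of 7d-SHAM + 3 or 1, 2 or 4 of 7d-MI + 3, with log2 values of 0.68 to 0.82 and adjusted p of 0.056 to 0.085.

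Between infarcted mice, 7d-MI + 3 was higher than 1d-MI + 3 in 5 members and lower in none, where 43.0% of genes passed in either direction. *Mrc1* had 2.2 (SE 0.18, adjusted p = 1.2e-07), *Folr2* 2.09 (SE 0.27, adjusted p = 9.2e-06) and *Ccr2* 1.75 (SE 0.48, adjusted p = 0.0096), beside *Arg1* above. *Cd163*, with 1.26 (SE 0.50, adjusted p = 0.047), was the weakest of the 5: it no longer passed without replicate 2, 3 or 4 of 1d-MI + 3 (adjusted p = 0.086, 0.10 and 0.11) or without 7d-MI + 3 replicate 3 (0.79, adjusted p = 0.21). *Cd163* passed in only 7 of 18 alternative fits. Its call was also lost in DESeq2 (adjusted p = 0.063), in edgeR with upper-quartile scaling (0.13) and with the label prefix as a random block in limma-voom (0.071). Between shams, where 20.3% of genes passed, 7d-SHAM + 3 was higher in 3 members, all resident (*Folr2*, *Mrc1* and *Cd163*). The recruited genes had a median of -0.16 there and the resident genes of 2.10, against -0.13 over all genes. *Ccr2* was the only member with lower values in every library of 7d-SHAM + 3 than in any of 1d-SHAM + 3, a description that also holds for 11.1% of all genes, and its -1.25 did not pass (adjusted p = 0.11). Comparisons that have a group in common share its libraries, so these lists of genes are not independent of each other.

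**Figure D2:**
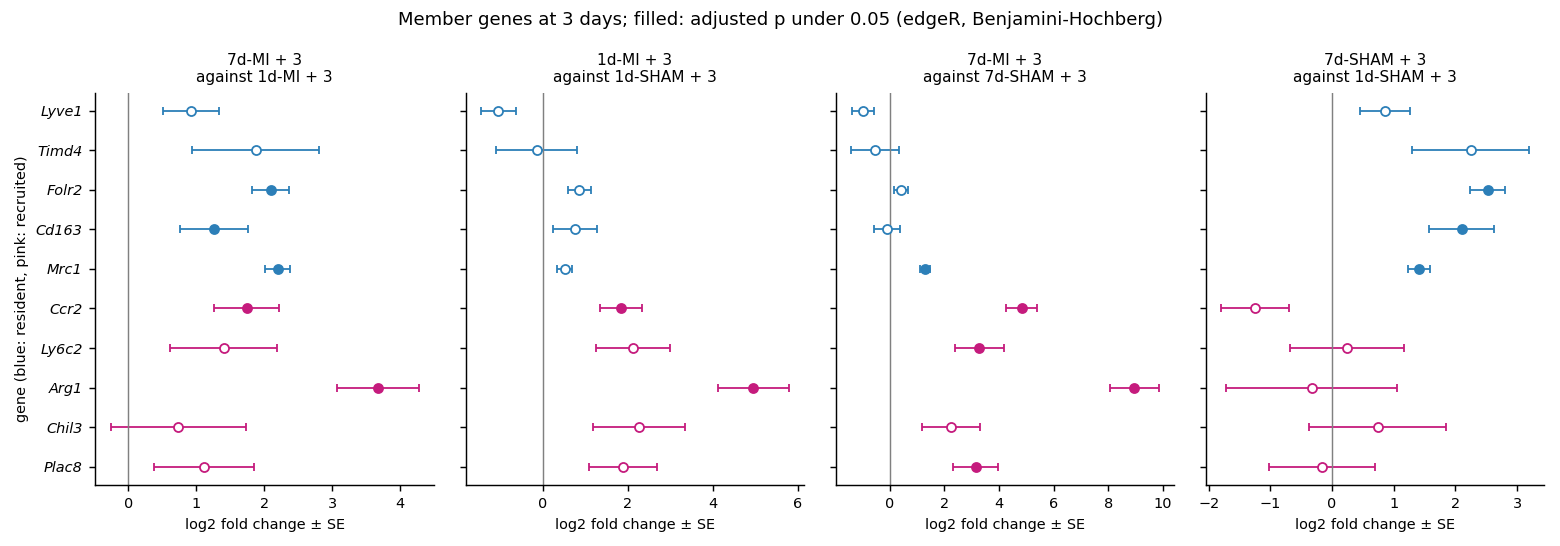
Log2 fold change (x axis) with its standard error (SE) for each of the 10 genes in 4 comparisons at 3 days, with resident genes in blue and recruited genes in pink, and filled points for an adjusted p under 0.05. Recruited genes lie to the right of 0 in both comparisons of MI with sham, and resident genes lie to the right of 0 in the comparison of shams.

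Other genes of the same cells and pathways give these values their setting. All 16 pan-macrophage genes, which are shared by both kinds, had a positive log2 fold change in 7d-MI + 3 against 7d-SHAM + 3, and 15 passed, led by *Laptm5* (2.54), *Itgam* (3.80) and *Spi1* (2.62; edgeR, adjusted p = 6.4e-07, 1.1e-06 and 2.4e-06). Their summed level was 42.1 to 63.6 CPM in 1d-SHAM + 3, 79.7 to 215 in 1d-MI + 3, 92.5 to 121 in 7d-SHAM + 3 and 298 to 579 in 7d-MI + 3. Of 12 other monocyte genes tested, 11 were higher and 1 lower in 7d-MI + 3 than in 7d-SHAM + 3, at a median of 3.14, with *Fn1*, *Vcan* and *Clec4e* (3.34, 1.85 and 6.49; edgeR, adjusted p = 6.1e-09, 5.0e-08 and 2.1e-05) first by p. *Fn1* and *Vcan* encode matrix proteins that fibroblasts also make. Of 16 other resident macrophage genes tested, 6 were higher (first *Maf*, *Stab1* and *Siglec1*, at 1.36, 1.20 and 2.29; edgeR, adjusted p = 1.0e-05, 3.0e-05 and 0.0021) and *Selenop* was lower (-0.63; adjusted p = 0.016), at a median of 0.76. At 1 day, 8 of the pan-macrophage, 4 of the other monocyte and 3 of the other resident genes were higher with MI, and none was lower.

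The ligands and regulators around these cells moved in the same comparison. Of 15 tested, 12 were higher in 7d-MI + 3 than in 7d-SHAM + 3 and none lower, at a median of 1.82. They include *Ccl2* and *Ccl7*, ligands of CCR2 (4.68 and 4.57; edgeR, adjusted p = 2.8e-06 and 7.7e-07), and *Hmox1*, the heme oxygenase that acts after uptake of hemoglobin (3.95, adjusted p = 6.2e-07). At 1 day 4 were higher with MI, among them *Ccl7* and *Ccl2* (2.30 and 1.74; edgeR, adjusted p = 0.0059 and 0.027). The effect of MI on 6 of the 15 was larger at 7 days than at 1 day by the test of the difference, among them *Has2*, a hyaluronan synthase, *Hmox1* and *Il4ra*, the interleukin-4 receptor (2.56, 2.71 and 1.31; edgeR, adjusted p = 3.5e-04, 0.0018 and 0.0043).

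Markers of other cells differed in the same comparisons, in both directions. Of 11 neutrophil genes tested, 10 were higher in 7d-MI + 3 than in 7d-SHAM + 3 and 5 in 1d-MI + 3 than in 1d-SHAM + 3, at medians of 3.64 and 2.01, with summed levels of 2.85 to 5.10 CPM in 7d-SHAM + 3, 40.0 to 83.6 in 7d-MI + 3, 5.01 to 9.51 in 1d-SHAM + 3 and 23.1 to 30.1 in 1d-MI + 3. *S100a8* led at both ages (4.0 and 2.25; edgeR, adjusted p = 9.4e-10 and 4.9e-06). Of the 13 neutrophil genes listed, 1 (*Elane*) held 0 counts in all libraries of 7d-SHAM + 3 and of 7d-MI + 3. With MI at 7 days 2 of 7 lymphocyte genes tested and 1 of 6 dendritic cell genes were higher and none lower. Lymphocyte genes summed to 2.04 to 2.79 CPM in 7d-SHAM + 3 and 3.06 to 10.9 in 7d-MI + 3, and dendritic cell genes to 9.41 to 12.6 and 10.6 to 12.3, which overlap. Of 6 fibroblast genes 4 were higher (first *Col1a1*, *Col1a2* and *Tcf21*, at 3.23, 1.88 and 0.99; edgeR, adjusted p = 6.1e-09, 9.7e-07 and 0.0065) and 2 lower (*Dcn* and *Lum*, at -0.82 and -0.62; edgeR, adjusted p = 4.5e-04 and 0.023), with sums of 1537 to 1746 CPM with sham and 2340.2 to 2600.2 with MI. Of 8 cardiomyocyte genes 5 were lower and none higher, with sums of 29412 to 30786 CPM and 15084 to 24985. Of 8 vascular endothelial genes, *Ly6c1* among them, 4 were lower and 1 higher, with sums of 429.8 to 481 CPM with sham and 336 to 488 with MI. Some members are also expressed by such cells, for example *Chil3* and *Plac8* by neutrophils and *Mrc1* by lymphatic endothelium. The part of these cells in the values of the members, and in those of the pan-macrophage genes, was not tested.

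Since the pan-macrophage genes were higher with MI, the members were also described relative to them, as the log2 of CPM plus 0.5 minus the mean of the same quantity over the 16 pan-macrophage genes of the library. On this scale *Lyve1* stood at 1.02 ± 0.67 with sham against -0.81 ± 0.84 with MI at 1 day, and at 1.01 ± 0.34 against -1.87 ± 1.02 at 7 days (mean ± SD, n = 4 in each group here). At 1 day *Timd4* and *Mrc1* were likewise lower, with *Timd4* at -2.10 ± 0.38 with sham against -3.11 ± 0.64 with MI and *Mrc1* at 2.72 ± 0.21 against 2.22 ± 0.30. In these 3 genes the libraries of 1d-MI + 3 lay below those of 1d-SHAM + 3 without overlap, as did 37.6% of all genes tested. The gap was narrow in *Mrc1* (lowest sham 2.49, highest MI 2.48) and in *Timd4* (lowest sham -2.58, highest MI -2.63). *Arg1* stood at -2.21 ± 0.47 with sham against -0.63 ± 0.86 with MI at 1 day, higher without overlap by a narrow gap (highest sham -1.78, lowest MI -1.77), as were 0.216% of all genes. *Ccr2* stood at 0.14 ± 0.55 with sham and 0.55 ± 0.88 with MI at 1 day, and its libraries overlapped. The other recruited genes had lower means with MI at 1 day and overlapped: *Ly6c2* (-2.26 ± 0.25 against -2.73 ± 0.45), *Chil3* (-2.26 ± 0.42 against -2.61 ± 1.02) and *Plac8* (-1.93 ± 0.36 against -2.09 ± 0.30). So did the resident genes *Folr2* (-1.16 ± 0.33 against -1.62 ± 0.20) and *Cd163* (-1.42 ± 0.49 against -1.91 ± 0.73).

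At 7 days *Cd163* stood at -0.73 ± 0.15 with sham against -2.77 ± 0.93 with MI on the relative scale, *Folr2* at -0.06 ± 0.19 against -1.56 ± 0.43 and *Timd4* at -2.11 ± 0.51 against -4.23 ± 0.52. *Mrc1*, whose CPM rose with MI at 7 days, stood at 3.26 ± 0.15 in 7d-SHAM + 3 and 2.66 ± 0.22 in 7d-MI + 3. Of the recruited genes, *Ly6c2* stood at -3.06 ± 0.17 against -3.80 ± 0.38. The libraries of 7d-MI + 3 lay below those of 7d-SHAM + 3 without overlap in 6 members, the 5 resident genes and *Ly6c2*, a position shared with 89.9% of all genes. *Chil3* (-2.97 ± 0.53 against -3.95 ± 0.68) and *Plac8* (-2.81 ± 0.11 against -2.96 ± 0.30) had lower means with MI and overlapped. *Arg1* stood at -3.07 ± 0.27 with sham against 1.34 ± 0.18 with MI, and *Ccr2* at -1.66 ± 0.44 against 0.75 ± 0.14. Both were higher in every library of 7d-MI + 3, as were 0.664% of all genes. Recruited genes thus stood in both directions on this scale. *Timd4*, *Ly6c2*, *Chil3* and *Plac8* are so low that the added 0.5 sets much of their value, as it does for *Arg1* in the shams. These values are a description with no test.

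Levels can be compared between genes only per length, here as CPM per kilobase of the length in the deposited tables. In 7d-SHAM + 3 the resident genes *Mrc1* (7.41 ± 1.27), *Folr2* (3.96 ± 0.63) and *Lyve1* (3.83 ± 1.48) had the highest levels in CPM per kilobase (mean ± SD, n = 4), with *Folr2* and *Lyve1* closer to each other than their spread. In 7d-MI + 3 the order was led by *Arg1* (32.6 ± 10.8) and *Mrc1* (18.3 ± 2.19), followed by *Folr2* (5.35 ± 0.53) and *Ccr2* (4.96 ± 1.58), again a pair closer than their spread. *Lyve1* (1.94 ± 1.13) and *Plac8* (1.24 ± 0.54) came next, and *Cd163*, *Chil3*, *Ly6c2* and *Timd4* all had means under those, of 0.235 to 0.536. The sum over the 5 resident genes was 5.80 ± 1.29 CPM per kilobase with sham against 6.55 ± 1.56 with MI at 1 day, and 16.1 ± 3.29 against 26.4 ± 1.49 at 7 days. The higher resident sum with MI at 7 days came mostly from *Mrc1*, and *Folr2* also had a higher mean. The means of *Lyve1*, *Cd163* and *Timd4* were lower with MI there, so the resident genes did not rise as a set. The sum over the 5 recruited genes was 0.727 ± 0.204 against 5.01 ± 2.87 at 1 day and 0.504 ± 0.137 against 39.6 ± 12.9 at 7 days. Recruited genes made up 9.42 to 14.3% of both sums in 1d-SHAM + 3, 29.7 to 53.3% in 1d-MI + 3, 2.31 to 3.79% in 7d-SHAM + 3 and 49.6 to 65.0% in 7d-MI + 3. The share was therefore higher in every MI library than in any sham of the same age, and *Arg1* alone made up most of the recruited sum in 7d-MI + 3. At 21 days the shares were 5.62 to 9.70% in 1d-SHAM + 21, 1.96 to 4.51% in 1d-MI + 21, 4.07 to 17.6% in 7d-SHAM + 21 and 5.25 to 11.4% in 7d-MI + 21. The sums rest on the few genes of highest level per length and describe the RNA of these genes, not numbers of cells.

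**Figure D3:**
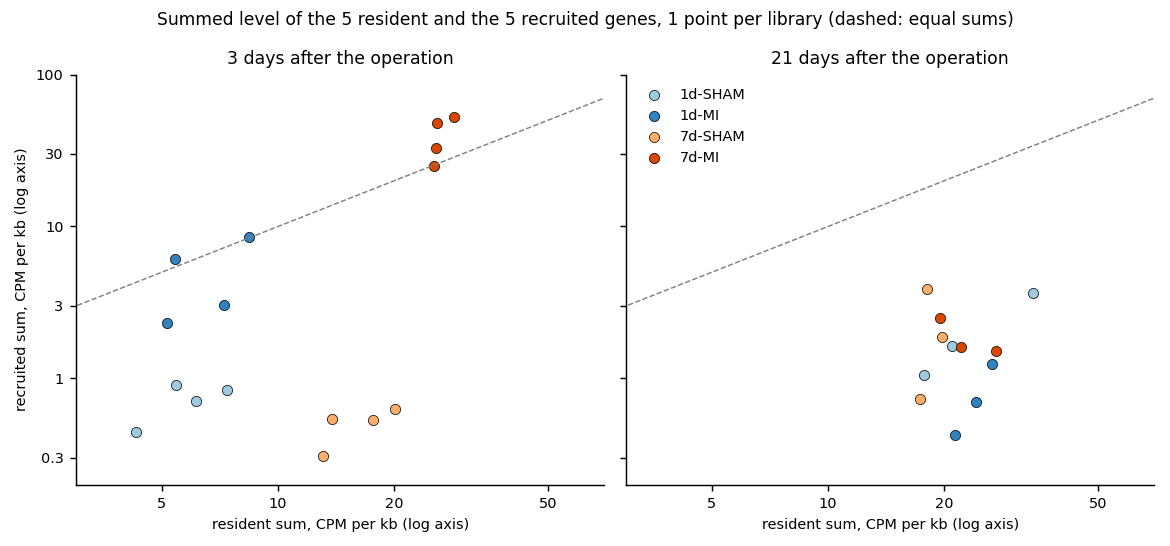
Summed level of the 5 resident genes (x axis) against that of the 5 recruited genes (y axis), in CPM per kilobase on log axes, with 1 point per library, for the follow-up of 3 days (left) and 21 days (right), and a dashed line where both sums are equal. At 3 days the points of MI lie above those of the shams at each age, and at 21 days all 12 libraries lie below the line, with recruited shares of 1.96 to 17.6%.

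At 21 days none of the 10 members passed in any comparison in edgeR after adjustment over all genes, where 0.0325% of the 24646 genes tested passed for 7d-MI + 21 against 1d-MI + 21, 0.0162% for 1d-MI + 21 against 1d-SHAM + 21, and 0.0% in the other comparisons. At an unadjusted p under 0.05 there were 1, 4, 1, 0 and 1 members for 7d-MI + 21 against 1d-MI + 21, 1d-MI + 21 against 1d-SHAM + 21, 7d-MI + 21 against 7d-SHAM + 21, the shams, and the comparison of both MI effects, where 6.52%, 14.6%, 16.7%, 1.79% and 3.76% of all genes tested were under it. Limma-voom called none, and DESeq2 called *Timd4* in the comparison of MI with sham at 1 day and *Ly6c2* in that at 7 days. The biological coefficient of variation was 0.567, against 0.331 at 3 days, with 3 libraries a group against 4. In simulated counts of 21 days the fit called 18 of 97 genes with a true log2 fold change of 2. Members without a call there may therefore still have changed.

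*Timd4* measured 3.28, 4.07 and 4.74 CPM in 1d-SHAM + 21 and 0.980, 1.33 and 1.94 CPM in 1d-MI + 21, with no overlap. The log2 fold change was -1.50 (SE 0.41, edgeR, adjusted p = 0.28), and -1.61 in DESeq2 (adjusted p = 0.040) and -1.55 in a fit of the 2 groups alone (adjusted p = 0.045). In 7d-SHAM + 21 it measured 2.21, 2.87 and 3.02 CPM, and in 7d-MI + 21 it measured 1.27, 3.51 and 2.07 CPM. Those groups overlapped.

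*Ly6c2* measured 0.826, 0.766 and 0.930 CPM in 1d-SHAM + 21 and 0.209, 0.327 and 0.270 CPM in 1d-MI + 21. It measured 0.894, 1.07 and 1.78 CPM in 7d-SHAM + 21 and 0.442, 0.550 and 0.267 CPM in 7d-MI + 21. At both ages every MI library lay below every sham library, whereas at 3 days the means were higher with MI at both ages. The log2 fold changes were -1.65 at 1 day and -1.56 at 7 days (edgeR, adjusted p = 0.28 and 0.23); the second passed in DESeq2 (-1.65, adjusted p = 0.038) and without 7d-SHAM + 21 replicate 1 (-1.71, adjusted p = 0.046). Counts were 15 to 84 per library, and the receptor genes that measure stray reads reached 0.253 CPM per kilobase in 7d-SHAM + 21, where *Ly6c2* measured 0.326, 0.392 and 0.648.

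*Lyve1* measured 7.62, 10.97 and 16.6 CPM in 1d-SHAM + 21 and 20.3, 21.9 and 19.8 CPM in 1d-MI + 21. It measured 7.91, 9.06 and 6.66 CPM in 7d-SHAM + 21 and 9.46, 13.3 and 13.1 CPM in 7d-MI + 21. At both ages the MI libraries lay above the sham libraries without overlap, where at 3 days the means were in the other order. The log2 fold changes were 0.82 (SE 0.32) and 0.60 (SE 0.32), and neither passed (edgeR, adjusted p = 0.30 and 0.34). The libraries of 1d-MI + 21 were also above those of 7d-MI + 21 without overlap (-0.79 for 7d-MI + 21 against 1d-MI + 21, edgeR, adjusted p = 0.66). Between 1d-MI + 21 and 1d-SHAM + 21, 4 members in all were without overlap (*Lyve1* and *Folr2* higher with MI, *Timd4* and *Ly6c2* lower), as were 27.4% of all genes, and between 7d-MI + 21 and 7d-SHAM + 21 there were 3 (*Lyve1*, *Arg1* and *Ly6c2*), as were 12.6% of all genes.

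Of the recruited genes, *Arg1* held 5 to 74 counts per library at 21 days, with 0.343, 0.323 and 0.445 CPM in 7d-MI + 21, with 0.117, 0.233 and 0.311 CPM for 7d-SHAM + 21 and a single higher library, 1d-SHAM + 21 replicate 5, at 1.68 CPM. *Ccr2* measured 0.3004, 1.40 and 3.28 CPM in 1d-MI + 21 and 7.24, 3.49 and 4.36 CPM in 7d-MI + 21, groups without overlap (1.58, SE 0.77, edgeR, adjusted p = 0.78). *Arg1* and *Plac8* were likewise higher in every library of 7d-MI + 21 than in any of 1d-MI + 21, and *Lyve1* lower, so that 4 members were without overlap in this comparison, as were 16.3% of all genes. *Mrc1*, at 36.9 to 105 CPM, and *Cd163*, at 4.25 to 20.2 CPM, overlapped in all 4 comparisons of groups, as did *Chil3*, at 0 to 1.29 CPM.

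**Figure D4:**
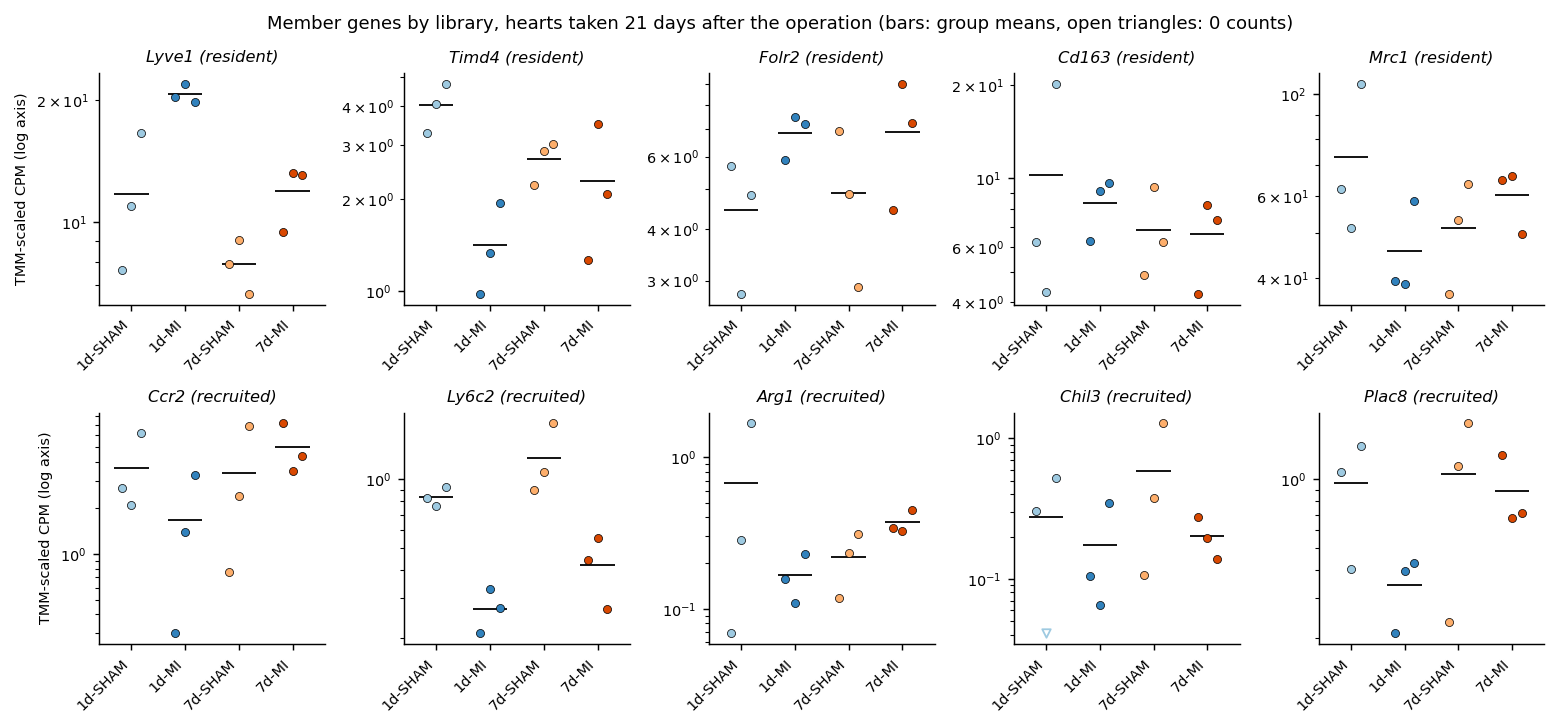
CPM after TMM scaling (log axis) of the 10 genes in each library of the 21-day follow-up, by group, with 3 points per group, a bar at the group mean and an open triangle for a library with 0 counts. *Ly6c2* lies lower and *Lyve1* higher in the MI groups than in the shams of the same age, and *Mrc1* overlaps between all groups.

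Genes whose level followed a member from library to library were sought within groups, by Pearson's r of log2 of CPM plus 0.5 after subtraction of the group means, over the 16 libraries of 3 days. These r values are a description, since libraries also share depth, stray reads and label prefix. *Plac8* had the closest companions, *Dock2* (r = 0.960), *Itgb2* (0.934) and *Lgals3* (0.890), which are expressed in leukocytes or, for galectin 3, in macrophages. *Arg1* was closest to *Pik3r5* (0.929), *Adam8* (0.925) and the chemokine gene *Ccl6* (0.903), and *Ly6c2* to *Clec4e* (0.927), *Chst11* (0.917) and *Alcam* (0.914). *Ccr2* was closest to *Zeb2* (0.912), *Skil* (0.891) and *Rai14* (0.881), and *Chil3* to *Tshz3* (0.838), *Sars2* (0.825) and *Npepps* (0.818). Among the resident genes, *Mrc1* was closest to *H2-Ab1* (0.878), an MHC class II gene, *Dab2* (0.848) and *Eaf1* (0.833), and *Folr2* to *Krt8* (0.885), *Fn1* (0.879) and *Tagln* (0.869). *Lyve1* was closest to *Plagl2* (0.905), *Parp4* (0.894) and *Pdzd2* (0.893), *Cd163* to *Klhl15* (0.910), *Crkl* (0.872) and *Cacna1c* (0.850), and *Timd4* to *Scn10a* (0.891), *Tmie* (0.782) and *Sf3a2* (0.777). Among the members themselves, the 20 pairs within a class had a median r of 0.160 (-0.362 to 0.690) and the 25 pairs of a resident with a recruited gene one of 0.210 (-0.528 to 0.556). The highest r among members joined *Ly6c2* with *Plac8* (0.690), *Arg1* with *Plac8* (0.622) and *Ly6c2* with *Arg1* (0.597), all recruited genes.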

How the data were processed

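Total RNA sequencing of left ventricular remote zone gave 28 libraries, in 30 deposited tables, since 2 sham libraries at 21 days were read on 2 lanes, whose counts were summed here. The authors aligned the reads and counted them per gene, and the deposited tables give counts, CPM and RPKM of which only the counts were used. Cufflinks 2.2.1, TopHat2 2.0.11 and Bowtie2 2.2.2 stand in the submitters' processing notes, with the build GRCm38. The strand setting of the counting is not given in the sources used here. Deposited CPM equalled count over total.

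Each follow-up was fitted apart, with 4 group means, in edgeR 4.0.16 (R 4.3.3) after TMM scaling and filterByExpr (minimum count 10, total 15), which left 20345 genes at 3 days and 24646 at 21 days. Robust quasi-likelihood tests were adjusted by Benjamini-Hochberg over all genes tested, and a gene passed at an adjusted p under 0.05. Log2 fold changes and their SE, taken from the fold change and its F value, were computed from the deposited counts. CPM in the text are counts over TMM-scaled totals. The fit was tested on simulated data with known answers. For a true log2 fold change of 2 it called 60 of 98 changed genes at 3 days and 18 of 97 at 21 days. For a true log2 fold change of 1 it called 41 of 93 and 1 of 92. No library was a second copy of another: the lowest chi-square per degree of freedom between libraries of a group was 13.4.

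The labels do not say how same-numbered animals are related. Samples numbered alike at 21 days did not deviate together (median correlation 0.011 over 15 pairs, -0.352 to 0.441). Labels at 3 days carry a letter after the prefix and no animal number, so replicates there were numbered in accession order. Alternatives were DESeq2 1.42.0, limma-voom (limma 3.58.1), other scalings and filters, fits of 2 groups, a replicate block, the first lane only, label prefix as a block and each library left out in turn. Subtraction of stray reads and leaving out all libraries of a label prefix were added after seeing the data. The members and lists were chosen with earlier results of these data known. All 146 listed symbols were found. Named beside the members are the 3 genes of lowest p per direction in a list where any passed, the 3 genes most like each member, and near copies, and further genes named for their role (*Gm10602*, *Elane*, *Ccl21a*) were chosen after their values were seen.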

Additional observations from a re-analysis of the deposited data

Results flagged for a closer look

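Among 40 groups of 4 libraries at 3 days (10 members in 4 groups), 2 held a library far from the others by Dixon's criterion, and chance gives about 1 in 20. In 1d-MI + 3, replicate 4 had 2.40 CPM of *Folr2*, against 0.933 to 1.09 in the other 3 libraries. In 7d-MI + 3, replicate 3 had 4.49 CPM of *Cd163*, against 1.56 to 1.93 in the others. The effect of MI differed between the ages in *Ccr2*, by 3.00 on the log2 scale (edgeR, adjusted p = 0.015), and in *Mrc1*, by 0.79 (edgeR, adjusted p = 0.038), both larger after the operation at 7 days. *Ccr2* was higher in 4 of 4 libraries of 7d-MI + 3 than in any of 7d-SHAM + 3, and its libraries of 1d-MI + 3 overlapped those of 1d-SHAM + 3.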

How the results depend on the processing

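Under the alternatives, 1886 values of members were computed, 120 of which turned direction, none of these called in either fit, while 44 calls were lost and 37 gained. Of the 5 members changed in 7d-MI + 3 against 7d-SHAM + 3, 3 remained with label prefix as a random block in limma-voom, and 5 to 6 passed with a library left out. In limma-voom without that block *Lyve1* and *Chil3* passed as well. In 1d-MI + 3 against 1d-SHAM + 3 the count of 2 became 4 under upper-quartile scaling, no filter, the stricter filter and DESeq2, 1 in a fit of the 2 groups alone, and 0 under limma-voom, with its prefix block and without prefix 1103. With a library left out it was 1 to 4, with 1 without replicate 1, 3 or 4 of 1d-SHAM + 3 or replicate 4 of 1d-MI + 3, and 4 without replicate 3 of 1d-MI + 3. Between infarcted mice the count of 5 became 4 to 6 with a library left out, and *Cd163* passed in 7 of 18 alternatives. Between shams 5 rather than 3 passed without a filter, and 3 whichever library was left out. The count of 2 for the difference of the MI effect became 1 under RLE, upper-quartile scaling, the stricter filter and background subtraction, 0 with the prefix block and without prefix 1078, and 1 to 2 with a library left out. The causes were not tested.

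At 21 days the count of 0 became 1 in DESeq2 for MI against sham at each age, 1 in the 2 groups alone at 1 day, and 0 to 1 with a library left out at 7 days (1 without 7d-SHAM + 21 replicate 1). With the replicate number as a block it stayed at 0 in every comparison, and the numbers were not taken as pairs. No paired analysis was made at 3 days, where the labels hold a prefix that no groups share and a letter whose meaning is not given.

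Counts over all genes ranged from 161 to 5599 in 1d-MI + 3 against 1d-SHAM + 3 (1722 in the report's fit), 4497 to 7776 in 7d-MI + 3 against 7d-SHAM + 3 (6910), 6054 to 13019 between infarcted mice (8745), 1213 to 7406 between shams (4125) and 849 to 3484 for the difference (2662). At 21 days they reached 5903 in 7d-MI + 21 against 7d-SHAM + 21 (0), 600 at 1 day (4), 205 between infarcted mice (8) and 43 for the difference (0). Upper-quartile scaling moved the median of all genes at 3 days by -0.24 between infarcted mice, 0.15 for MI at 1 day and -0.24 for the difference, and at 21 days by -0.32 and -0.34 for MI at 1 and 7 days. It moved the share of higher calls from 45.2 to 27.3%, 48.4 to 78.5% and 68.9 to 36.8% in those at 3 days, and RLE moved the latter pair to 60.0 and 58.1%. Members below 1 CPM rest on few counts, and stray reads limit them most in 1d-MI + 3.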

Other observations

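At 21 days, the summed levels of some genes of other cell types did not overlap between infarcted mice, although none of these genes passed by edgeR (adjusted p under 0.05). Of all single genes tested, 16.3% were without overlap in this comparison. White adipocyte genes summed to 12.3 to 18.8 CPM in 7d-MI + 21 and 0 to 2.09 CPM in 1d-MI + 21, and mesothelium genes to 15.3 to 27.8 and 5.92 to 10.6 CPM. Fibroblast genes summed to 1673 to 2625 CPM in 7d-MI + 21 and 789 to 1103 CPM in 1d-MI + 21. In sham-operated hearts the white adipocyte sums ran from 1.66 to 8.57 CPM in 1d-SHAM + 21 and from 0.298 to 9.46 CPM in 7d-SHAM + 21. Pan-macrophage genes summed to 354 to 417 CPM in 7d-MI + 21 and 233 to 266 CPM in 7d-SHAM + 21, where 12.6% of single genes tested were without overlap. The pan-macrophage sums of 1d-MI + 21 (290 to 374 CPM) and 1d-SHAM + 21 (265 to 364 CPM) overlapped those of 7d-MI + 21.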
